A study of Mus musculus with 24 samples.

Results

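Haemoglobin transcripts were present in every one of 24 mouse brain RNA libraries, and the level of the most abundant, Hbb-bs, varied 3.06-fold to 5.99-fold between mice of one group. The description covers 5 genes of the red cell lineage, of 54532 in the expression table: the beta globins Hbb-bs and Hbb-bt, the alpha globins Hba-a1 and Hba-a2, and Alas2, the erythroid enzyme that starts haem synthesis. These genes were picked from their measured levels in the same mice, as a possible trace of blood in the tissue. Their levels, the differences between groups in them and the relations among them are therefore a description and carry no test. All 5 passed the filter on low values and were among 27286 genes tested.

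Male C57Bl6 wild-type mice were implanted with an osmotic minipump for 2 weeks, and brain tissue was taken for RNA sequencing. A total of 6 mice received vehicle, 6 received angiotensin II at 0.7 mg/kg/day, 6 received vehicle and amnion epithelial cells (AEC), and 6 received angiotensin II and AEC. AEC are human epithelial cells isolated from amnion of term placentas and injected into a tail vein, so any AEC transcript would be of another species than the brain. Angiotensin II is a peptide hormone that raises blood pressure. The study set out to learn whether AEC limit fibrosis and stiffening of the aorta in hypertension, and whether cognition changes with them, and RNA of the brain was one of its readouts. Perfusion is described for the mice used for flow cytometry, and whether the brains used for RNA were perfused is not given in the sources used here.

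Adult haemoglobin is a tetramer of alpha and beta globin chains, each holding a haem group that binds oxygen. Red cell precursors fill themselves with globin mRNA before they lose the nucleus, and young circulating red cells (reticulocytes) still carry this mRNA together with Alas2. Low levels of globin mRNA have also been described in some cells of the brain itself. Mice of the C57Bl6 background carry a pair of closely alike adult beta globin genes, Hbb-bs and Hbb-bt, and a duplicated adult alpha globin gene, Hba-a1 and Hba-a2.

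On the GRCm38 build, Hbb-bs (ENSMUSG00000052305) lay on chromosome 7 from 103826534 to 103828096, and Hbb-bt (ENSMUSG00000073940) lay on the same chromosome from 103812524 to 103813996, both on the minus strand. Hba-a1 (ENSMUSG00000069919) lay on chromosome 11 from 32283511 to 32284465, and Hba-a2 (ENSMUSG00000069917) from 32296489 to 32297298, both on the plus strand. Alas2 (ENSMUSG00000025270) lay on the plus strand of chromosome X from 150547375 to 150570638. The first annotated transcript of each globin gene had 3 exons and that of Alas2 had 11.

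The promoters of the 5 genes, which lie on 3 chromosomes, are shown as a description. Whether they bear on the variation of these genes between mice was not tested. In the 250 bases before the RefSeq start of each gene (GRCm38.p6), 4 short motifs that erythroid promoters are known for were searched on both strands: GATAA (the core bound by GATA factors), CACCC (bound by Klf factors), the CCAAT box, and TATAA. All 4 globin promoters held every one of these motifs, as did 318 of 32817 promoters of the table (0.969%). The Alas2 promoter held all but CCAAT. Taken singly, GATAA occurred in 22.6% of all promoters, CACCC in 52.0%, CCAAT in 33.8% and TATAA in 22.8%. Such matches are a description of the letters and not of binding. The motifs were chosen because erythroid promoters are known for them, so finding them here tests nothing. The Hba-a1 and Hba-a2 promoters are also near copies of each other. The stretches below end where the gene row of the expression table begins, so motifs nearer the start are not shown. Motifs within them are in capitals, and the stretches lie at chr7:103813997-103814173 (minus strand), chr11:32296242-32296488 (plus strand) and chrX:150547167-150547374 (plus strand).
Hbb-bt: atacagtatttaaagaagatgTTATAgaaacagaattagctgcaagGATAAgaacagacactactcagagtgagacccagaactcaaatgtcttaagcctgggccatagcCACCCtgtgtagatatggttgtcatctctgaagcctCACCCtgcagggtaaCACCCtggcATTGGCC
Hba-a2: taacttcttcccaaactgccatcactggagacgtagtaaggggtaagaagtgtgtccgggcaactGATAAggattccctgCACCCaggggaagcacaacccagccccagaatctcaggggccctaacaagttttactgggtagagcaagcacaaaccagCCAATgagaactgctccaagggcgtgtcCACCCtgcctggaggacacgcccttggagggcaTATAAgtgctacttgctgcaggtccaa
Alas2: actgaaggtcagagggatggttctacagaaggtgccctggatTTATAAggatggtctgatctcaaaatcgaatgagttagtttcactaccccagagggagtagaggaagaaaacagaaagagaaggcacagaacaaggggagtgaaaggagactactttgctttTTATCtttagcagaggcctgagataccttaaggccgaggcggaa

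In the Hba-a2 promoter, TATAA lay 30 to 26 bases before the start, CCAAT 91 to 87 bases and GATAA 185 to 181 bases before it. The Hbb-bs promoter had TATAA at 29 to 25 bases, CCAAT at 76 to 72 bases, CACCC at 90 to 86 bases and GATAA at 209 to 205 bases. At the end of the Hbb-bt stretch, a CCAAT read on the other strand (the letters ATTGG) abuts a forward CCAAT, of which only the first 2 bases are shown. The TATAA shown for Hbb-bt is a reverse match at 229 to 225 bases, while its forward TATAA (28 to 24 bases) lies past the stretch. The forward and reverse TATAA matches of Alas2 overlap each other at 208 to 203 bases, and its GATAA was read on the other strand (the letters TTATC). All CACCC matches of Alas2 lie 40 to 26 bases before the start, past the stretch shown. The Hba-a1 promoter shared an unbroken run of 247 of 250 bases with that of Hba-a2, whereas the longest run shared by the Hbb-bs and Hbb-bt promoters was 14 bases.

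The transcripts themselves were partly identical between copies. Of all stretches of 100 bases in the first annotated transcript, 62.6% of those of Hbb-bs occurred in Hbb-bt, and 74.5% of those of Hba-a2 occurred in Hba-a1. The longest shared run was 430 bases for the beta pair and 415 bases for the alpha pair, against 14 bases between Hbb-bs and Hba-a1. How the authors' counting divided reads between such copies is not given in the sources used here, so the split within each pair is uncertain, and sums over a pair are given as well.

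Levels are FPKM, the fragments counted on a gene scaled by its length and by the size of the library, as deposited by the authors. The FPKM values came back to whole reads in every mouse, 16536449 to 25308700 per mouse. In total FPKM, 6 libraries stood apart at 338334 to 348597, against 277116 to 298301 in the other 18. They comprised 2 vehicle mice, 1 mouse infused with angiotensin II, 1 given vehicle + AEC and 2 given angiotensin II + AEC. Their replicate numbers were all 5 or 6 (vehicle 5 and 6, angiotensin II 5, vehicle + AEC 6, angiotensin II + AEC 5 and 6). Angiotensin II replicate 6 and vehicle + AEC replicate 5 did not belong to these 6. What set these libraries apart is not given in the labels, so group medians, differences and correlations are given for the other 18 as well, with 4 vehicle mice, 5 with angiotensin II, 5 with vehicle + AEC and 4 with angiotensin II + AEC. The 4 globins together took 0.00263% to 0.0157% of a mouse's reads. In bulk tissue, a change in the number of cells of a type and a change in RNA per cell cannot be told apart.

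Hbb-bs was the highest of the 5 genes, at 16.5 to 99.0 FPKM (255 to 1484 reads) over the 24 mice. With vehicle its lowest, median and highest levels were 16.5, 39.2 and 99.0 FPKM, and the mean was 47.4 ± 32.6 FPKM (SD, n = 6). Mice infused with angiotensin II had 17.3, 40.9 and 97.1 FPKM, with a mean of 52.7 ± 33.8 FPKM (SD, n = 6). Both groups thus spanned nearly the whole range seen in the experiment. Vehicle + AEC gave 19.3, 34.5 and 59.2 FPKM, with a mean of 37.4 ± 17.1 FPKM (SD, n = 6). Angiotensin II + AEC gave 20.3, 73.6 and 84.5 FPKM, with a mean of 59.2 ± 29.5 FPKM (SD, n = 6). In this last group 4 mice lay between 71.7 and 84.5 FPKM and the other 2 at 20.3 and 22.8 FPKM, with none between. Every pair of groups overlapped. Group medians in the 18 libraries were 24.3 FPKM with vehicle, 32.7 FPKM with angiotensin II, 28.1 FPKM with vehicle + AEC and 49.1 FPKM with angiotensin II + AEC.

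Hba-a1, the more abundant of the alpha copies, followed at 12.02 to 76.5 FPKM (196 to 1382 reads). Its lowest, median and highest levels were 12.02, 28.3 and 76.5 FPKM with vehicle, and 16.1, 31.5 and 72.4 FPKM with angiotensin II. They were 13.7, 25.4 and 50.3 FPKM with vehicle + AEC, and 13.7, 56.5 and 67.1 FPKM with angiotensin II + AEC. Every group again overlapped every other. Its medians in the 18 libraries were 18.8, 29.0, 24.4 and 41.2 FPKM in the order vehicle, angiotensin II, vehicle + AEC and angiotensin II + AEC.

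Hbb-bt and Hba-a2, the less abundant copies, were measured from fewer reads. Hbb-bt ranged from 1.88 to 14.99 FPKM (30 to 208 reads), with group medians of 5.83 FPKM with vehicle, 4.71 FPKM with angiotensin II, 4.62 FPKM with vehicle + AEC and 12.8 FPKM with angiotensin II + AEC. Hba-a2 ranged from 1.15 to 13.3 FPKM (16 to 154 reads), with medians of 3.77 FPKM, 5.03 FPKM, 3.69 FPKM and 7.65 FPKM in the same order. The highest median of both copies was thus in mice given angiotensin II + AEC, where the lowest mouse had 3.30 FPKM of Hbb-bt and 3.19 FPKM of Hba-a2. Within the 18 libraries, in the same order, the medians were 4.09, 3.99, 3.68 and 7.94 FPKM for Hbb-bt and 2.80, 3.88, 2.61 and 4.30 FPKM for Hba-a2.

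Alas2 was the lowest of the 5, at 0.224 to 2.28 FPKM (10 to 98 reads). Its lowest, median and highest levels were 0.224, 0.557 and 1.55 FPKM with vehicle and 0.382, 0.621 and 1.78 FPKM with angiotensin II. With vehicle + AEC they were 0.335, 0.744 and 0.937 FPKM, and with angiotensin II + AEC 0.347, 1.54 and 2.28 FPKM. Medians in the 18 libraries were 0.372, 0.425, 0.620 and 1.22 FPKM in the same order. The mouse with the most Alas2 was given angiotensin II + AEC and was not the one with the most Hbb-bs.

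**Figure D1:**
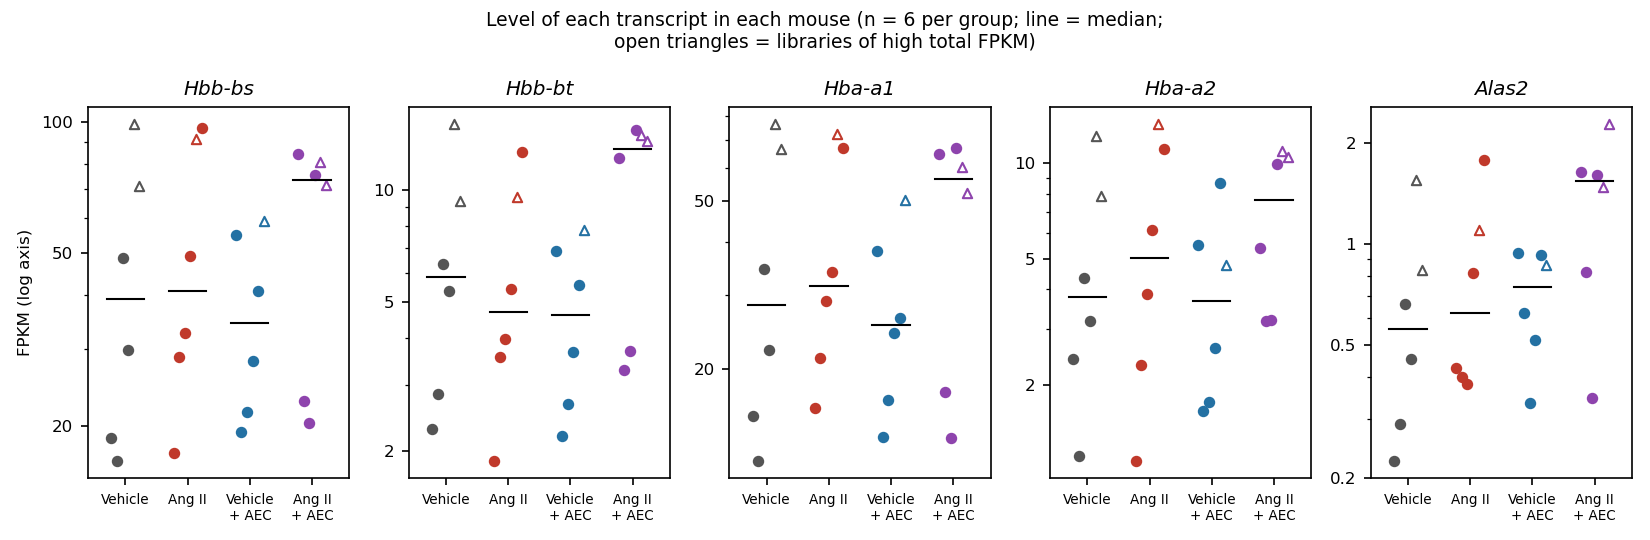
FPKM on a log axis (vertical) of each of the 5 genes in each mouse, by group (horizontal), with 6 mice per group, a line at the group median and open triangles for the 6 libraries of high total FPKM. The groups overlap for every gene, and with angiotensin II + AEC 4 mice lie at 71.7 to 84.5 FPKM of Hbb-bs and 2 at 20.3 and 22.8 FPKM.

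Hbb-bs exceeded Hba-a1 in every mouse, and both were far above the minor copies. Mean levels over the 24 mice were 49.2 ± 28.3 FPKM for Hbb-bs and 38.04 ± 22.3 FPKM for Hba-a1 (SD, n = 24). They were 6.997 ± 4.43 FPKM for Hbb-bt, 5.71 ± 3.84 FPKM for Hba-a2 and 0.887 ± 0.560 FPKM for Alas2 (SD, n = 24). The means of Hbb-bt and Hba-a2 differed by less than the SD of either. Of the globin reads of a mouse, Hbb-bs took 44.9% to 51.8% and Hba-a1 34.3% to 46.0%, while Hbb-bt took 4.64% to 8.33% and Hba-a2 2.69% to 9.24%.

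The spread within groups was larger than that of most genes with a mean of at least 10 reads per mouse. On the log2(FPKM + 0.1) scale, the SD within groups was 0.93 for Hbb-bs, 0.93 for Hbb-bt, 0.94 for Hba-a1, 1.08 for Hba-a2 and 0.78 for Alas2. The median over 17208 genes with a mean of at least 10 reads per mouse, not matched in depth to the 5, was 0.27. Ranked by this SD from the highest, the 5 genes held places between 180 and 437.

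The 5 genes varied together from mouse to mouse. Over 24 mice, Pearson's r of their log2(FPKM + 0.1) values was 0.83 to 0.99 over the 10 pairs, and Spearman's rho was 0.83 to 0.97. The closest pair was Hbb-bs with Hba-a1, an r of 0.99, although these genes lie on different chromosomes and share no stretch of 100 bases. The loosest pair was Hba-a2 with Alas2, an r of 0.83. Without the 2 mice farthest from the median the range was 0.82 to 0.99, and with the group means subtracted it was 0.84 to 0.99. Among the 18 libraries it was 0.80 to 0.98. Among the 6 libraries of high total FPKM it ran from -0.11 (Hba-a1 with Alas2) to 0.89 (Hbb-bs with Hba-a2), over a narrower span of Hbb-bs of 59.2 to 99.0 FPKM. All points of a mouse share its library and depth.

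**Figure D2:**
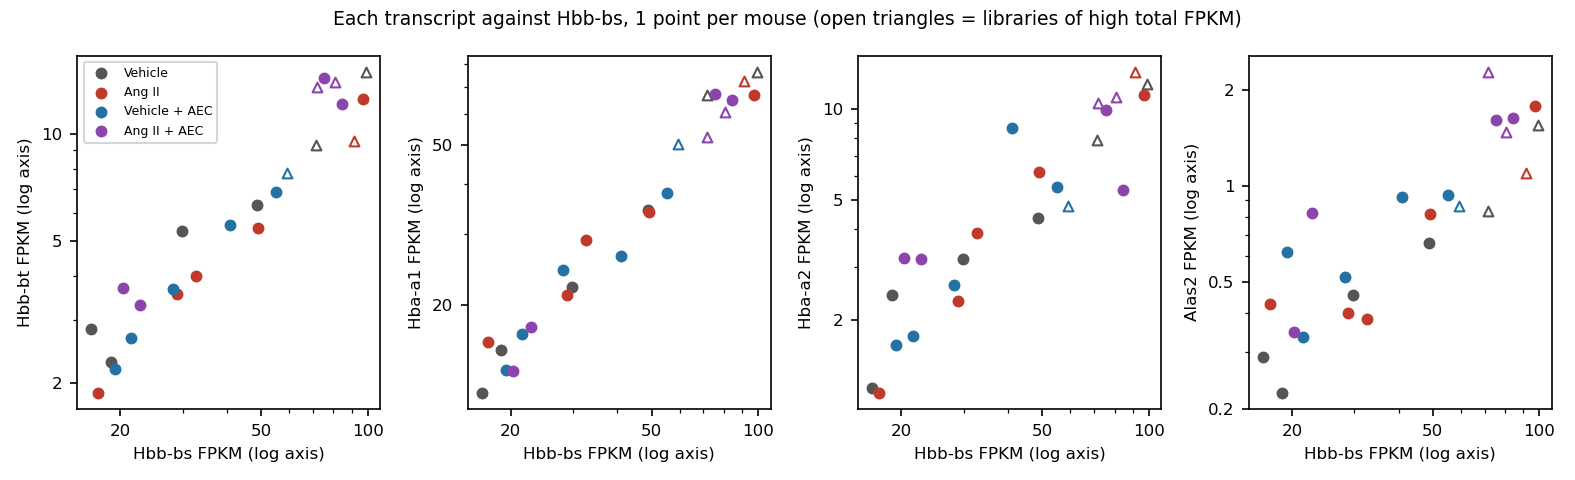
FPKM of Hbb-bt, Hba-a1, Hba-a2 and Alas2 (vertical, log axis) against FPKM of Hbb-bs (horizontal, log axis), with 1 point per mouse coloured by group and open triangles for the 6 libraries of high total FPKM. Mice of all groups fall along the same band, with Hba-a1 the tightest (r of 0.99) and Alas2 the widest (r of 0.88).

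Ratios between the genes varied far less than their levels. Hba-a1 was 0.645 to 0.934 of Hbb-bs in FPKM, with a coefficient of variation of 10.6%, while Hbb-bs itself spanned 5.99-fold. The sum of the alpha globins was 0.682 to 0.924 of the sum of the beta globins, with a coefficient of variation of 9.29%. Median alpha to beta ratios were 0.749 in vehicle mice, 0.793 in angiotensin II mice, 0.762 with vehicle + AEC and 0.747 with angiotensin II + AEC. All 4 medians lay within a span narrower than that of single mice.

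The minor copies and Alas2 kept looser proportions. Hbb-bt was 0.104 to 0.191 of Hbb-bs, its median being 0.141 with vehicle, 0.116 after angiotensin II, 0.128 for vehicle + AEC and 0.178 for angiotensin II + AEC. Hba-a2 was 0.0714 to 0.328 of Hba-a1. Alas2 was 0.0117 to 0.0361 of Hbb-bs, with a coefficient of variation of 35.6%. Read numbers scattered around constant ratios by 2.97 to 6.42 times the variance that counting alone gives (chi-square per degree of freedom), so the ratios also varied beyond counting error.

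On average, libraries of high total FPKM had more of every one of the 5 genes. Hbb-bs was 59.2 to 99.0 FPKM in these 6 and 16.5 to 97.1 FPKM in the other 18, of which 3 exceeded the lowest of the 6. The mean log2 difference between the sets was 1.22 for Hbb-bs, 1.27 for Hbb-bt, 1.29 for Hba-a1, 1.40 for Hba-a2 and 0.92 for Alas2. Genes of similar length moved the same way by less, with a median difference of 0.46 over 520 genes of 600 to 900 bases and 0.19 over 2757 genes of 2000 to 3000 bases, each with at least 10 reads on average. The part of the library set in the globin levels was not tested.

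In the 3 comparisons of groups, the difference of each of the 5 genes was smaller than its SD within groups. From vehicle to angiotensin II, the log2 difference was 0.19 for Hbb-bs (SE 0.50), 0.19 for Hba-a1 (SE 0.51), 0.21 for Hba-a2 (SE 0.59), 0.28 for Alas2 (SE 0.43) and -0.13 for Hbb-bt (SE 0.51). Adding AEC to angiotensin II gave 0.21 for Hbb-bs, 0.17 for Hba-a1, 0.44 for Hba-a2, 0.74 for Hbb-bt and 0.69 for Alas2, with the same standard errors. All 5 estimates were above 0 there, at 1.13-fold to 1.68-fold. Adding AEC to vehicle gave -0.17 for Hbb-bs, -0.22 for Hba-a1, -0.19 for Hba-a2, -0.37 for Hbb-bt and 0.21 for Alas2. The first and second of these comparisons share the angiotensin II mice, and the first and last share the vehicle mice.

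The interaction asks whether AEC had another effect with angiotensin II than with vehicle. Its estimate was 0.38 for Hbb-bs (SE 0.71), 0.40 for Hba-a1 (SE 0.72), 0.63 for Hba-a2 (SE 0.83), 1.12 for Hbb-bt (SE 0.72) and 0.48 for Alas2 (SE 0.61). That of Hbb-bt exceeded its SD within groups of 0.93. In the 18 libraries alone the estimate for Hbb-bs was -0.10 (SE 0.73), that for Hba-a1 -0.092 (SE 0.71) and that for Alas2 -0.087 (SE 0.64), so these did not keep their sign. It was 0.0011 for Hba-a2 (SE 0.85) and 0.60 for Hbb-bt (SE 0.75). With AEC added to angiotensin II, the difference in the 18 was 0.59 for Hbb-bt (SE 0.53), 0.51 for Alas2 (SE 0.45), 0.36 for Hba-a2 and 0.12 for Hba-a1. There the difference of Hbb-bs was 0.55 (SE 0.52) from vehicle to angiotensin II, 0.13 with AEC added to angiotensin II and 0.23 with AEC added to vehicle. Over the 5 genes these differences ran from 0.22 to 0.62 for angiotensin II and from -0.0079 to 0.60 for AEC added to vehicle.

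**Figure D3:**
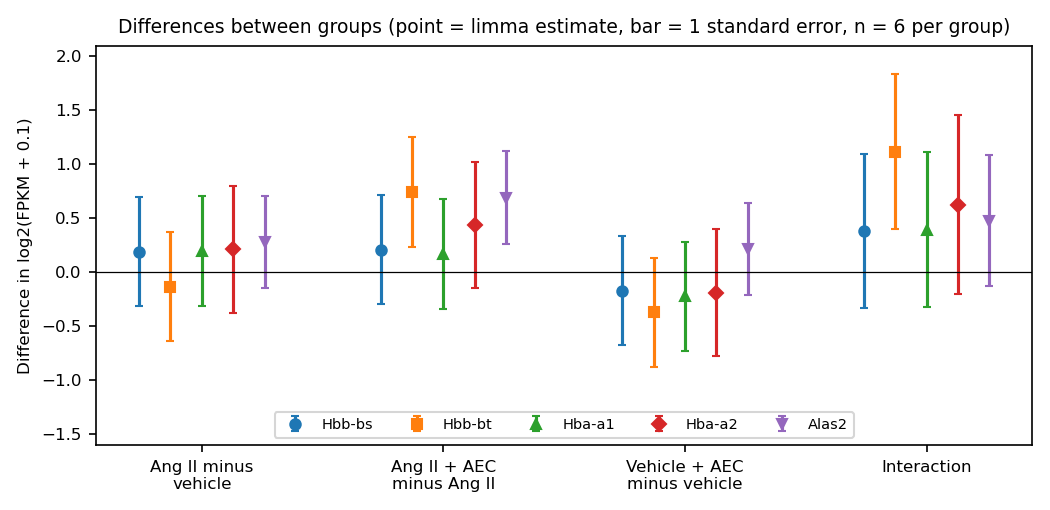
Difference in log2(FPKM + 0.1) (vertical) for 3 comparisons of groups and their interaction (horizontal), for each of the 5 genes, as the limma estimate with a bar of 1 standard error, from 6 mice per group. The bars of Hbb-bs, Hba-a1 and Hba-a2 cross 0 in every comparison, while those of Hbb-bt and Alas2 for AEC added to angiotensin II and that of Hbb-bt in the interaction (1.12) do not. This last estimate was 0.60 in the 18 libraries.

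Calls came from limma over 27286 genes with Benjamini-Hochberg adjustment. At an adjusted p under 0.05, 0 of these genes (0%) were called in each of the 4 comparisons, and so 0 of the 5. The same count of 0 came from voom on the recovered reads. At an unadjusted p under 0.05, the background was 604 genes (2.21%) for angiotensin II against vehicle and 694 genes (2.54%) for AEC added to angiotensin II. It was 658 genes (2.41%) for AEC added to vehicle and 692 genes (2.54%) for the interaction. None of the 5 genes was among them in any of the 4. Since the genes were picked with these values in view, nothing is read from that count.

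Other globins were measured in the same mice. The embryonic beta globins Hbb-bh1 and Hbb-bh2 had 0 reads in all 24 mice, where a count of 0 in a single mouse, taken alone, allows up to 3 reads. Hbb-y averaged 0.0302 FPKM (at most 2 reads). The theta globin Hbq1a averaged 0.620 FPKM and its copy Hbq1b 0.347 FPKM. Cytoglobin (Cygb) and neuroglobin (Ngb), globins of brain cells, averaged 43.2 and 7.35 FPKM. Cygb, at 34.6 to 60.9 FPKM, spanned a far narrower range than Hbb-bs despite a similar mean. Of the 6 tested genes of this list, 0 were called in any comparison.

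Most other genes that define red cells and their precursors were near 0, unlike the globins. Among 12 tested genes of the red cell membrane and blood groups, the highest were Sptb (24.2 FPKM), Ank1 (13.5 FPKM) and Epb41 (6.71 FPKM), which encode parts of the membrane skeleton and are also used by neurons. The genes closest to red cells were far lower, with 0.158 FPKM for Slc4a1 (the anion exchanger band 3) and 0.00840 FPKM for Rhag. Slc4a1 had at most 62 reads in a mouse and Rhag at most 2. Among 10 tested regulators, Zfpm1 (11.5 FPKM), Lmo2 (8.80 FPKM) and Epor (3.89 FPKM) were the highest. Gata1, which drives red cell maturation, averaged 0.00605 FPKM with at most 2 reads, and Klf1, the activator of adult beta globin, averaged 0.155 FPKM with at most 12 reads.

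**Figure D4:**
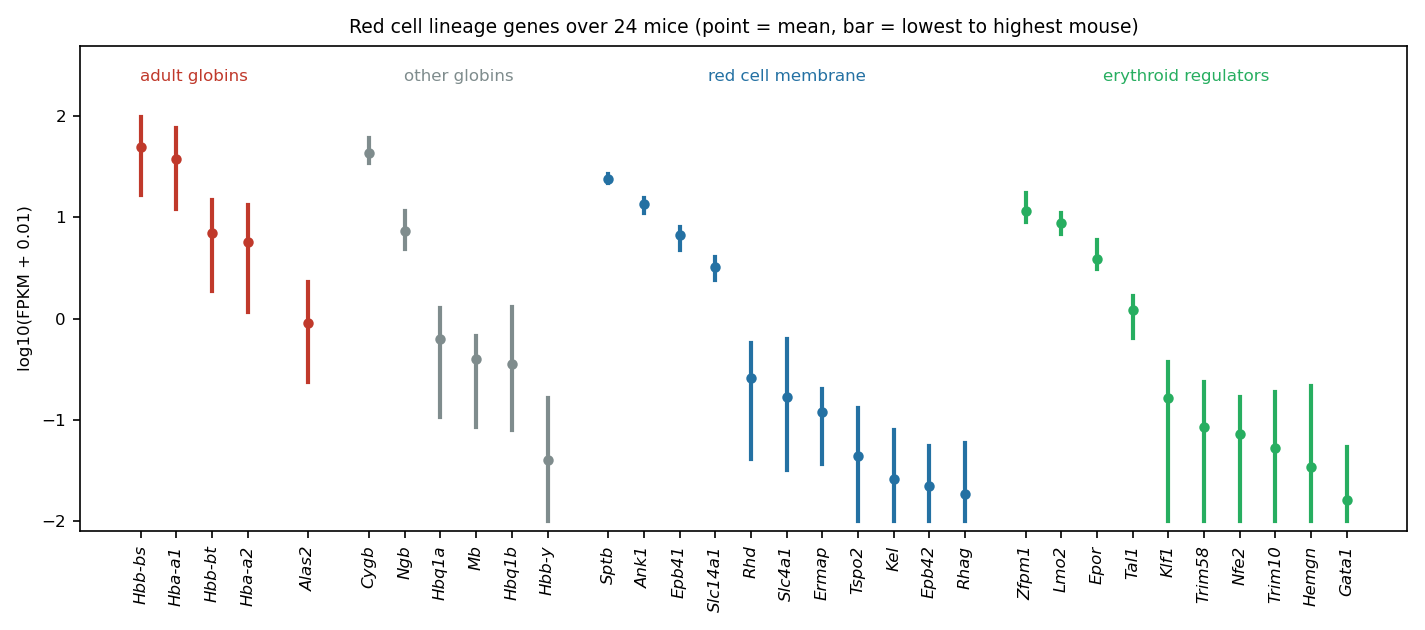
Log10(FPKM + 0.01) (vertical) of tested genes of 5 lists of the red cell lineage and other globins (horizontal), with a point at the mean and a bar from the lowest to the highest of 24 mice. The adult globins lie at means of 5.71 to 49.2 FPKM, and Slc4a1, Klf1 and Gata1 have means below 0.2 FPKM.

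Genes of haem synthesis other than Alas2 had higher means than Alas2, except the transporter Abcb6 (0.286 FPKM). Alas1, the form of the first enzyme that all tissues use, averaged 9.49 FPKM. Tmem14c (46.4 FPKM), Urod (18.7 FPKM) and Fech (17.1 FPKM) were the highest of the 14 tested genes. Fech, which inserts the iron, ranged from 12.98 to 19.7 FPKM, while Alas2 spanned 10.2-fold. Of red cell enzymes and maturation genes, Car2 (88.9 FPKM), Prdx2 (74.8 FPKM) and Gpx1 (61.3 FPKM) were the highest, and of genes that handle haem and iron Fth1 (2540 FPKM), Ftl1 (91.4 FPKM) and Slc48a1 (70.1 FPKM). No gene of these 3 lists was called after adjustment in the 4 comparisons, and none had an unadjusted p under 0.05.

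For AEC added to angiotensin II, 6 of the 12 red cell membrane genes had a difference above 0, with a median of 0.044 on the log2 scale, and 2 of the 12 had an unadjusted p under 0.05, both higher. Of the 10 regulators 7 were above 0, with a median of 0.093, and 1 had such a p. The median over all genes tested was -0.017 and the background 2.54%. Slc4a1 and Klf1, named here after their values were seen, were among these. Slc4a1 averaged 0.128 ± 0.0938 FPKM with angiotensin II and 0.294 ± 0.177 FPKM with angiotensin II + AEC, a difference of 0.78 on the log2(FPKM + 0.1) scale (SE 0.27). Klf1 averaged 0.0845 ± 0.0726 FPKM and 0.210 ± 0.128 FPKM, a difference of 0.73 (SE 0.30). With vehicle alone Slc4a1 averaged 0.110 ± 0.0456 FPKM and Klf1 0.188 ± 0.0969 FPKM, so the Klf1 level with angiotensin II + AEC was near that of vehicle. From vehicle to angiotensin II, the difference of Klf1 was -0.67 (SE 0.30, unadjusted p = 0.0391 by limma). The 10 regulators did not share a direction in that comparison, as 5 were above 0, with a median of 0.049. An unadjusted p under 0.05 was found there for 1 higher and 1 lower regulator, beside 2.21% of all genes tested. In the 18 libraries the difference for AEC added to angiotensin II was 0.86 for Slc4a1 (SE 0.35) and 0.76 for Klf1 (SE 0.31). All means are given ± SD with n = 6. By limma with Benjamini-Hochberg adjustment the adjusted p was 1 for both, so the differences did not hold against the number of genes tested. They rest on a mean of 14.9 reads per mouse for Slc4a1 and 4.63 for Klf1.

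Genes whose level followed Hbb-bs were sought among 17207 genes with a mean of at least 10 reads. The other 4 members held the first 4 places by Spearman's rho over 24 mice, from 0.97 for Hba-a1 to 0.88 for Alas2, and held the same places in the 18 libraries. The next gene, Sh3d21, had a rho of 0.81. Rps15a, a ribosomal protein gene, had a rho of 0.80, as did D330023K18Rik and Gstk1, a glutathione transferase. Vdac3, a mitochondrial channel, had 0.79, and Cmtm5, Gm14776, Gstm7, H2afv and Bin2 had 0.78. In the 18 libraries Sh3d21 was in place 6 and Cmtm5 in place 79.

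Likeness to Hbb-bs also went with gene length. Across 17203 genes, Spearman's rho of gene length with r to Hbb-bs was -0.51 over 24 mice and -0.22 over the 18 libraries. The median r to Hbb-bs was 0.31 for genes of 600 to 900 bases and -0.50 for genes over 5000 bases, but 0.071 and -0.070 in the 18 libraries. Genes are not independent replicates here, and short genes share the shift of the 6 libraries described above.

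Levels of other blood and brain cells were set beside Hbb-bs through 16 marker lists, each as the mean log2(FPKM + 0.1) of its tested genes. Because Hbb-bs was picked by its values in these mice, r and rho are a description with no test, over mice that share a library and its depth with every list. The 2 sets of libraries stood apart in total FPKM and differed in Hbb-bs, so values in the 18 are given with pooled ones. Values in the 6 are given for some lists. Over 24 mice the highest r was that of red cell enzymes and maturation genes, at 0.68 (rho 0.67), but it was 0.48 in the 18 libraries and 0.0061 in the 6. The genes of that list did not all follow Hbb-bs, as 9 of the 14 had r above 0 over 24 mice. Brain lists were also high when pooled, and lower in the 18 libraries, with r of 0.59 and 0.32 for neurons and 0.52 and -0.12 for oligodendrocytes. In the 6 libraries r was -0.45 for neurons and 0.26 for oligodendrocytes.

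Neutrophil genes had the highest r with Hbb-bs within the 18 libraries, at 0.68, with rho 0.69. Without the 2 mice farthest from the median of Hbb-bs, r was 0.65. Pooled over 24 mice r was 0.44, and in the 6 libraries it was 0.099. The highest of the 14 genes were S100a9 (7.27 FPKM), S100a8 (4.53 FPKM), which together form calprotectin, and Csf3r (2.102 FPKM). S100a9 had r 0.73 with Hbb-bs in the 18 libraries, S100a8 0.58 and Csf3r -0.39, so the genes of the list did not all follow Hbb-bs. Several genes of this list were picked by the study on the same mice, so the list is not independent evidence of a direction.

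Summed FPKM of the neutrophil list was 8.85 to 17.3 with vehicle, 10.46 to 29.9 with angiotensin II, 10.3 to 20.7 with vehicle + AEC and 13.8 to 54.4 with angiotensin II + AEC. From vehicle to angiotensin II, 3 of its 14 genes had an unadjusted p under 0.05 and all 3 were higher (S100a8, S100a9 and Retnlg), with 0 called after adjustment. The share over all genes tested was 2.21%, and the study had named S100a8 and S100a9 as upregulated in the same mice. The list's median log2 difference was 0.50, beside 0.021 for all genes tested, while Hbb-bs differed by 0.19. Ly6g, a defining neutrophil marker, averaged 0.0357 FPKM, and none of the 14 genes was at 0 in all mice. The part of neutrophil RNA in the globin levels was not tested.

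Monocyte genes, with Fn1 (4.00 FPKM), Chil3 (0.432 FPKM) and F13a1 (0.394 FPKM) the highest of 8, had r 0.66 and rho 0.55 with Hbb-bs in the 18 libraries. Without the 2 farthest mice r was 0.51, pooled over 24 mice it was 0.35 and in the 6 libraries 0.38. The red cell membrane list had r 0.57 in the 18 libraries and 0.28 over 24 mice. Within that list Slc4a1 had r 0.55 in the 18 libraries and 0.54 over all 24. The genes of the list did not all follow Hbb-bs, as 6 of the 12 tested had r above 0 over 24 mice. Ank1 and Epb41 had r -0.50 and -0.48 over 24 mice, and 0.037 and 0.087 in the 18 libraries. Erythroid regulators had r 0.38 in the 18 libraries, 0.48 over 24 mice and 0.064 in the 6. Genes that handle haem and iron had 0.18 in the 18 and 0.56 over 24, those of haem synthesis 0.16 and 0.0045, and the other globins 0.036 and 0.099.

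Platelet genes were low, with Pf4 (1.73 FPKM), Itgb3 (0.700 FPKM) and Itga2b (0.664 FPKM) the highest of 10. The r of the list with Hbb-bs fell from 0.61 over 24 mice to 0.43 in the 18 libraries, and was 0.53 in the 6. In the 18 libraries, r was 0.055 for Pf4, 0.012 for Itgb3 and -0.26 for Itga2b. Lymphocyte genes, led by Ighm (13.7 FPKM), Trac (1.36 FPKM) and Igkc (1.01 FPKM), had r 0.27 in the 18 libraries, 0.60 over 24 mice and 0.59 in the 6. Singly, in the 18 libraries, Ighm had r 0.11, Trac -0.53 and Igkc 0.44. Endothelial genes line the vessels that hold blood, and Cldn5 (47.9 FPKM), Ly6c1 (29.6 FPKM) and Esam (6.63 FPKM) led that list. Its r was 0.19 over 24 mice, -0.26 in the 18 libraries and 0.91 in the 6, so the sign was not the same in both sets. Tissue on the brain's surface and in its ventricles was represented by meninges and choroid plexus genes, led by Ptgds (771 FPKM) and Ttr (664 FPKM). For meninges genes r was 0.55 over 24 mice, -0.041 in the 18 libraries and 0.81 in the 6, so the sign differed between sets here too. For choroid plexus genes r was 0.19 over 24 mice, 0.058 in the 18 libraries and -0.015 in the 6.

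**Figure D5:**
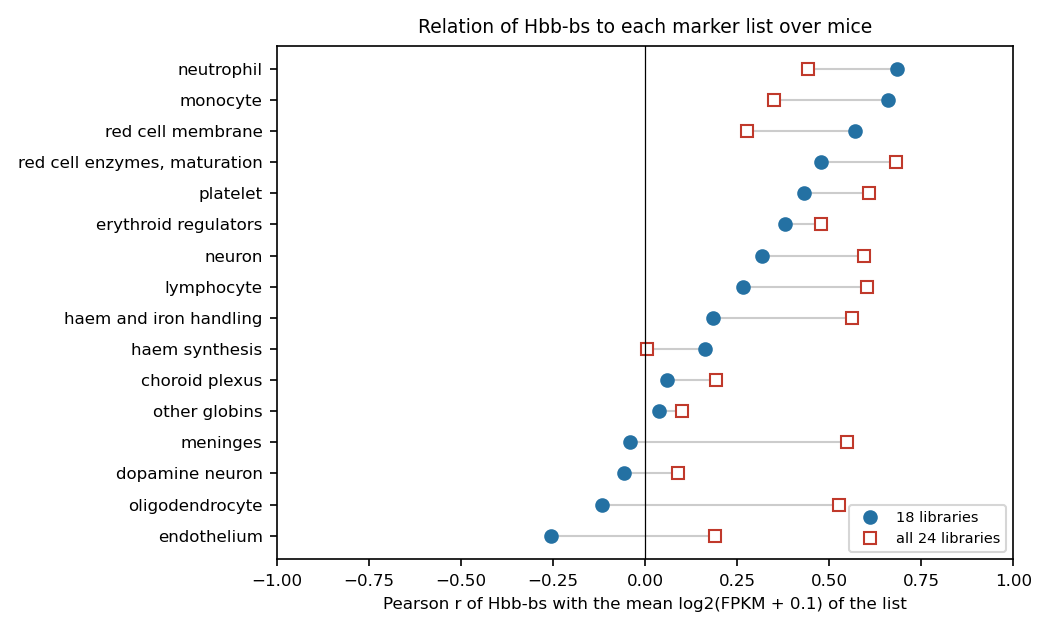
Pearson's r (horizontal) over mice of Hbb-bs with the mean log2(FPKM + 0.1) of each of 16 marker lists (vertical), in the 18 libraries (filled circles) and in all 24 (open squares). Neutrophil (0.68) and monocyte (0.66) genes lie highest in the 18 libraries, whereas oligodendrocyte and meninges genes move from 0.52 and 0.55 in all 24 to -0.12 and -0.041.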

How the data were processed

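RNA from brains of 24 mice, 6 in each of 4 groups by the sample labels, was analysed from the table of FPKM values deposited by the authors. Per the study's methods, mRNA was captured by poly-T and sequenced on an Illumina HiSeq, reads were mapped to the Ensembl mouse genome, and genes were tested with DESeq 1.10.1. The aligner, the counting program, strand use and annotation release are not given in the sources used here. Of 54532 gene identifiers, 98.3% had the same coordinates as in GENCODE M21 (GRCm38).

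FPKM multiplied by the deposited gene length gave whole reads (100% of values above 0 within 0.05 of a whole read, 16536449 to 25308700 per mouse), so precision could be judged from reads. FPKM keeps a library's composition, and 6 libraries with high total FPKM were set apart by the widest gap in that total. Poly-T capture and division by gene length both bear on short transcripts such as globins.

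Differences were fitted with limma 3.58.1 in R 4.3.3 on log2(FPKM + 0.1), which understates changes of low genes, with the 4 groups fitted jointly, empirical Bayes moderation with a mean trend (eBayes), and Benjamini-Hochberg adjustment over 27286 genes above 0 in at least 6 mice. The fit was also run on simulated counts that did not include the library set, so that run does not show how it does with the 6 libraries. Correlations with 16 lists used Python 3.11.15 and scipy 1.17.1. They are given with no p, since Hbb-bs was chosen by its values in these mice. Of 185 listed genes 184 were matched to 1 row. The 5 members and all lists were chosen with earlier results of these data known. Named genes were the members, the 3 highest genes of each list, any gene called, and the 10 most like Hbb-bs by rho. Not every gene of that rule is printed, single results of some listed genes are not reported here, and defining genes of red cells and neutrophils outside it, and Lcn2, were named after their values were seen. Promoter sequences are RefSeq's, and all 5 members matched.

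No 2 libraries of a group were copies, with chi-square per gene of 3.19 to 96.1 over 60 pairs. The labels number the replicates and do not say more on their origin, so p-values measure the spread between these samples. Alternatives were other pseudocounts, other filters, only the compared groups, the replicate block, median ratio scaling, voom on recovered reads, the library set as a term, the 18 libraries alone and each mouse left out.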

Additional observations from a re-analysis of the deposited data

How the results depend on the processing

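No alternative called a gene after adjustment: over the 4 comparisons, all 39 counts under other settings and all 60 counts without 1 mouse were 0. None of the 5 genes' log2 differences moved by as much as the SD within groups, in 155 other values and 300 without 1 mouse, but 13 of the 155 and 21 of the 300 had another sign. In the 18 libraries the interaction went from 0.48 to -0.087 for Alas2, from 0.40 to -0.092 for Hba-a1 and from 0.38 to -0.10 for Hbb-bs. For Hbb-bs from vehicle to angiotensin II they ran from 0.18 to 0.55, and from -0.050 to 0.46 without 1 mouse.

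Genes at an unadjusted p under 0.05, against 604, 694, 658 and 692 for angiotensin II, AEC added to angiotensin II, AEC added to vehicle and the interaction, moved with the filter and the library set. With a mean FPKM of at least 1 the counts were 93, 119, 105 and 118, over fewer genes. In the 18 libraries alone they were 1053, 1259, 1140 and 1146, and with the set as a term 944 for angiotensin II and 1063 for AEC added to angiotensin II. The cause was not tested. Leaving out 1 mouse gave 537 to 843, 612 to 887, 590 to 1188 and 617 to 1244, where the highest count of the last 2 came without replicate 6 of vehicle + AEC, a library of high total FPKM.

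Mice of different groups with the same number had a median correlation of their deviations of 0.35 over 36 pairs (-0.22 to 0.80), against 0.070 for other pairs. The 6 libraries of high total FPKM all had number 5 or 6, and the part of the library set in these correlations was not tested. Of the 36, 28 were above 0.1, so not every pair was, the labels do not say what a number marks, and the numbers were not treated as pairs. With the replicate block the unadjusted counts were 950, 993, 1036 and 1416, and 5 of 24 mice correlated best with their own number. Under the block, Alas2 and Hbb-bt had an unadjusted p under 0.05 for AEC added to angiotensin II, and Hbb-bt in the interaction, with 0 called after adjustment. Alas2 also did so for AEC added to angiotensin II without replicate 6 of angiotensin II or without replicate 3 of angiotensin II + AEC.

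The sign of r with Hbb-bs changed in the 18 libraries for endothelium (-0.26), meninges (-0.041), dopamine neuron (-0.059) and oligodendrocyte (-0.12) genes, with a pseudocount of 1 for red cell membrane genes (-0.10) and with group means subtracted for haem synthesis genes (-0.067). Depth limits Alas2 (10 to 98 reads) and the copies Hba-a2 and Hbb-bt more than Hbb-bs.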

Other observations

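Within the 18 libraries, the genes most like Hbb-bs by Spearman's rho after the other members were H3f3c (0.81), Sh3d21 (0.76), E230029C05Rik (0.75), Gm14776 (0.74), Tmem82 (0.73), Gstm7 (0.73), Map3k6 (0.73), Gnpat (0.72), Cabp4 (0.72) and S100a9 (0.72). Sh3d21, Gm14776 and Gstm7 were also among the 10 in all 24 mice. Some of the others were not close over 24 mice, such as Gnpat with rho 0.17 and E230029C05Rik with rho 0.27. H3f3c is annotated as a processed pseudogene of a histone gene, so its reads may be shared with that gene. These are descriptions over mice that share libraries, with no test.

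Lcn2, an iron-siderophore binding protein of neutrophils, had r 0.84 with Hbb-bs in the 18 libraries and 0.36 over 24 mice, where its rho was 0.14. It ranged from 0.409 to 4.19 FPKM.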
